A study of Mus musculus with 15 samples.

Results

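The MEIS, PREP and TGIF genes are families of the TALE class of homeobox genes, and 7 of them were in the table: Meis1, Meis2 and Meis3, the PREP genes Pknox1 and Pknox2, and Tgif1 and Tgif2. They were taken from the table by gene symbol and not by their levels, 7 of 24264 genes, though earlier results of these data were known at that time. RNA sequencing measured 5 regions of the mouse brain at E12.5, in mid-gestation, with 3 libraries each of ventral midbrain, forebrain, hindbrain, dorsal midbrain and alar plate, and no control group. All embryos were of the C57bl/6 strain and carried GFP driven by the promoter of Th, the tyrosine hydroxylase gene, so every region shares that transgene. Tissue was cut out under a microscope, RNA was extracted with Trizol, and sequencing libraries took 200 ng of it each; the labels name no cell sorting. Where along the brain the alar plate samples were cut, and whether embryos were pooled or differ between libraries, is not in the labels. The p-values therefore measure only how much these samples vary, which may be technical variation.

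TALE homeodomain proteins carry an extended loop between helices of the homeodomain. MEIS and PREP proteins bind DNA at sites built on TGACAG, usually together with PBX proteins, and hold PBX proteins in the nucleus; with HOX proteins they switch on hindbrain genes, and in the chick midbrain Meis2 works with Otx2 to give the tectum its character. TGIF proteins bind the related TGTCA and repress transcription, partly by joining SMAD proteins of the TGF-beta pathway with corepressors, and mutations of human TGIF1 are a cause of holoprosencephaly, a failure to divide the forebrain.

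Values are RPKM, reads scaled by the length of the gene model and by the reads of a library, as deposited by the authors. Whole reads could be worked back from the RPKM steps for 99.9% of 16612 genes, which gave 8320784 to 12585418 reads in a library. The 7 genes rested on 54 reads (Tgif1 in forebrain library 2, exact 95% Poisson interval 40.6 to 70.5) to 6694 reads (Meis2 in hindbrain library 2), and such intervals cover counting error only. A difference is called where limma on log2(RPKM + 1), with Benjamini-Hochberg adjustment over 13745 genes, gave an adjusted p under 0.05. All 7 genes passed the filter of 1 RPKM in at least 3 libraries.

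Markers matched the ventral midbrain label in all 3 libraries, with Th at 77.5, 81.7 and 68.9 RPKM, and did not match every other label. Tcf7l2, a gene of the diencephalon, was at 403, 259 and 132 RPKM in the forebrain libraries, against at most 3.62 RPKM in ventral midbrain and hindbrain. Dorsal midbrain library 3 had 378 RPKM of Tcf7l2, against 22.9 and 18.9 RPKM in dorsal midbrain libraries 1 and 2. Alar plate library 3 had 215 RPKM of Tcf7l2 and 89.3 RPKM of Ttr, a choroid plexus gene, against 57.9 and 80.4 RPKM of Tcf7l2 in alar plate libraries 1 and 2. Forebrain library 1 had 26.1 RPKM of Dlx1, against 0.0370 and 5.89 RPKM in forebrain libraries 2 and 3. Hindbrain library 1 had 39.7 RPKM of the midbrain and isthmus gene En1 and 0.107 RPKM of Hoxa2, whereas hindbrain libraries 2 and 3 had 8.56 and 4.55 RPKM of En1 and 11.1 and 6.24 RPKM of Hoxa2. Those 4 libraries stand apart from the others of their region, and the calls of each region against the rest are given with all libraries and, where they differ, with those left out; for pairs of regions that comparison is given as counts. The first 3 were known from earlier results of these data, and hindbrain library 1 was added after seeing the data, so the fits without them leave out libraries chosen for their distance and their p-values are too small for that reason.

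**Figure D1:**
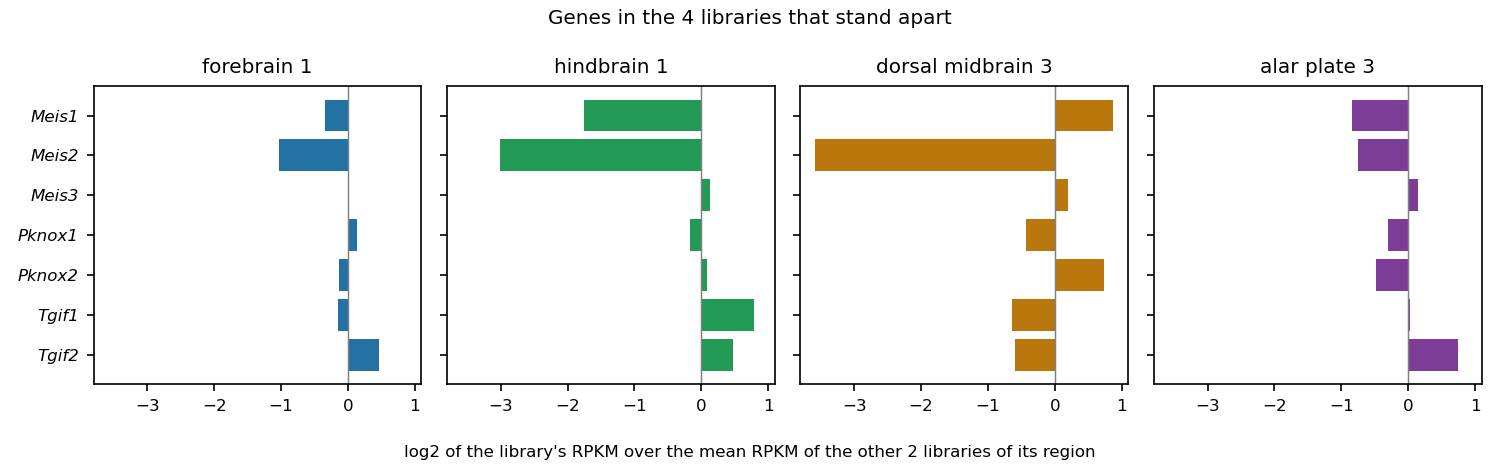
Level of each gene in the 4 libraries that stand apart, as the log2 ratio of that library's RPKM to the mean RPKM of the other 2 libraries of its region. Meis2 lay 11.95-fold below the other 2 in dorsal midbrain 3 and 8.02-fold below in hindbrain 1, while Meis3 stayed within 1.15-fold in all 4.

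The part of the genes' values that moved with these libraries was large for Meis2 and small for Meis3. Dorsal midbrain library 3 had 4.86 RPKM of Meis2, against a mean of 58.1 RPKM in the other 2 dorsal midbrain libraries, with Meis1 1.83-fold higher, Pknox2 1.66-fold higher and Tgif1 1.56-fold lower. Hindbrain library 1 had 11.5 RPKM of Meis2, against a mean of 92.5 RPKM, with Meis1 3.39-fold lower and Tgif1 1.72-fold higher. Forebrain library 1 had Meis2 2.04-fold lower and Tgif2 1.38-fold higher than the mean of the other 2. In alar plate library 3, Tgif2 was 1.68-fold higher and Meis1 1.80-fold lower, in a library whose ratio to the mean of the other 2 ran with gene model length. The median of that ratio was 1.55, 1.15, 0.887 and 0.617 over 4 equal bins of the genes from the shortest to the longest models, and Tgif2 is in bin 2 and Meis1 in bin 3. What the difference in length trend did to single genes was not tested.

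All 7 genes were called by the F test for any difference between the 5 regions, in which 33.7% of all genes tested were called. The adjusted p was 0.00728 for Meis1, 0.0260 for Meis2, 0.00877 for Meis3, 0.00167 for Pknox1, 0.00334 for Pknox2, 0.000585 for Tgif1 and 0.0123 for Tgif2. The call of Meis2 was lost without hindbrain library 3 (adjusted p = 0.0555) and without any of the 3 ventral midbrain libraries (0.0636 to 0.0822), and the other 6 calls held without any 1 library. In bulk tissue, fewer cells that express a gene and less RNA per cell cannot be told apart, and this holds for every difference below.

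Each region was then set against the mean of the other 4 regions, fits that share all 15 libraries. In ventral midbrain 4 of the 7 genes were called, 1 higher and 3 lower, where 10.6% of all genes were called, 7.43% higher and 3.16% lower. In forebrain 1 gene was called, lower, where 2.92% of all genes were called, 0.618% higher and 2.30% lower. In hindbrain 3 genes were called, 1 higher and 2 lower, where 6.30% of all genes were called, 4.03% higher and 2.27% lower. In dorsal midbrain 4 genes were called, 3 higher and 1 lower, a comparison that called 32.0% of all genes, 18.2% higher and 13.8% lower. In alar plate limma called none of the 7, where 4.66% of all genes were called, 1.24% higher and 3.41% lower. Of the 7, 3 had an unadjusted p under 0.05, and limma with voom weights on the recovered reads also called 0. Without the 3 libraries known to stand apart, 4 genes were called in ventral midbrain, 6 in forebrain, 5 in hindbrain, 6 in dorsal midbrain and 1 in alar plate. The shares of all genes called were higher there as well, at 33.5% in ventral midbrain, 43.7% in forebrain, 37.8% in hindbrain, 64.5% in dorsal midbrain and 12.3% in alar plate. Leaving out hindbrain library 1 too, the counts in that order were 4, 7, 6, 6 and 2, where 37.0%, 45.4%, 40.8%, 67.0% and 16.4% of all genes were called.

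**Figure D2:**
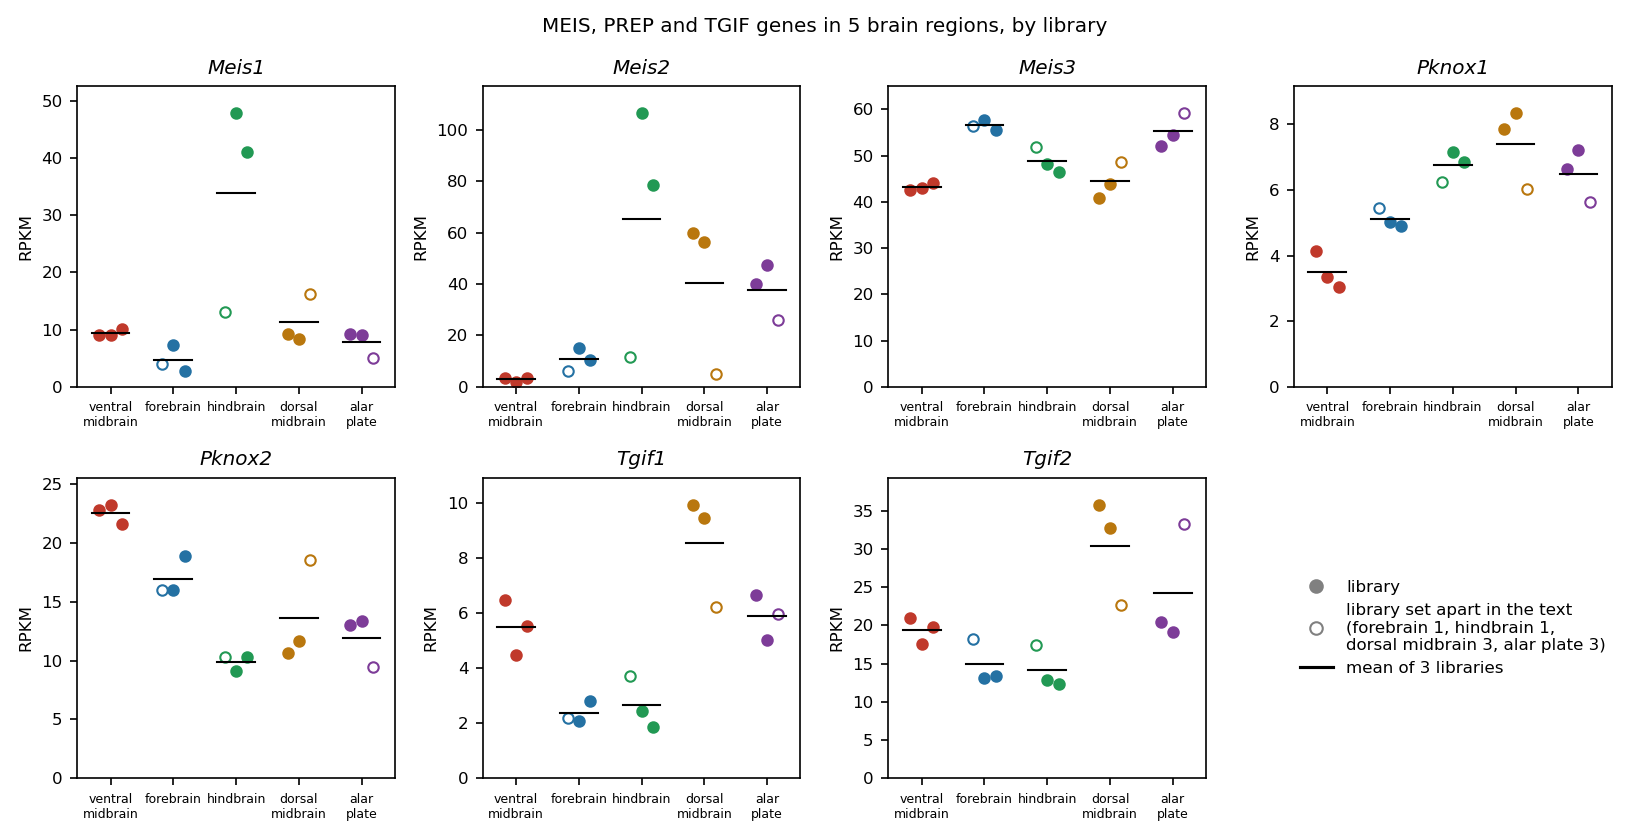
RPKM of each gene in each of the 15 libraries, by region, with the mean of the 3 libraries as a bar; open points are the 4 libraries that stand apart. The 3 ventral midbrain libraries held the lowest Meis2 (2.07 to 3.58 RPKM) and Pknox1 (3.06 to 4.13 RPKM) and the highest Pknox2 (21.6 to 23.2 RPKM) of all 15.

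Meis1, a transcription factor also needed in blood and limb development, was highest in hindbrain. It was at 9.02, 9.01 and 10.1 RPKM in the ventral midbrain libraries, 3.97, 7.24 and 2.79 RPKM in forebrain, 13.1, 47.8 and 41.0 RPKM in hindbrain, 9.25, 8.41 and 16.2 RPKM in dorsal midbrain, and 9.27, 8.99 and 5.08 RPKM in alar plate. Hindbrain libraries 2 and 3 exceeded all others, while hindbrain library 1 lay below the highest dorsal midbrain library. Hindbrain averaged 34.0 ± 18.4 RPKM (SD, n = 3), 4.11-fold the 8.28 RPKM of the other regions, with a log2 difference of 1.83 ± 0.33 (SE) and an adjusted p of 0.00524. That call was lost without hindbrain library 2 or 3 (adjusted p = 0.0625 and 0.0626). Forebrain averaged 4.67 ± 2.31 RPKM, with a log2 difference from the other regions of -1.32 ± 0.33 that was not called (adjusted p = 0.0537). With the 3 libraries that stand apart left out, that difference was -1.25 with an adjusted p of 0.0218, and with hindbrain library 1 left out too it was -1.40 (0.000504).

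Between neighbours in the order of mean Meis1 level, which ran hindbrain, dorsal midbrain, ventral midbrain, alar plate and forebrain, the first step was called and the other 3 were not (adjusted p 0.317 to 0.781). Hindbrain exceeded dorsal midbrain 3.01-fold in mean RPKM (adjusted p = 0.0257), a call lost without hindbrain library 2 or 3 or dorsal midbrain library 1 or 2 (0.0962 to 0.117). The log2 difference of ventral from dorsal midbrain was -0.19, with 0.0783 when the libraries that stand apart were left out.

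Meis2, which marks the developing tectum and many neuron types, had the widest range of the 7 genes, 51.5-fold between its lowest and highest library. It was at 3.45, 2.07 and 3.58 RPKM in the ventral midbrain libraries, 6.28, 15.1 and 10.6 RPKM in forebrain, 11.5, 106 and 78.6 RPKM in hindbrain, 59.9, 56.3 and 4.86 RPKM in dorsal midbrain, and 39.9, 47.6 and 26.0 RPKM in alar plate. All 12 libraries of the other regions lay above the 3 of ventral midbrain, and the lowest of the 12 was dorsal midbrain library 3. Ventral midbrain averaged 3.03 ± 0.84 RPKM, 12.7-fold below the 38.6 RPKM of the other regions, with a log2 difference of -2.77 ± 0.68 and an adjusted p of 0.0184. The call was lost without any 1 of the ventral midbrain libraries (adjusted p 0.0752 to 0.108). The difference was -3.19 with the 3 libraries that stand apart left out (adjusted p = 0.000682).

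Hindbrain and dorsal midbrain held the highest means of Meis2, at 65.5 ± 48.8 and 40.3 ± 30.8 RPKM, with hindbrain library 1 and dorsal midbrain library 3 far below the others of their region. Neither was called against the other regions, hindbrain with a log2 difference of 1.70 ± 0.68 (adjusted p = 0.147) and dorsal midbrain with 0.71 ± 0.68 (adjusted p = 0.456). Without the 3 libraries that stand apart the dorsal midbrain difference was 1.68 (adjusted p = 0.0256) and the hindbrain difference 1.29 (0.0639). Without those 3 and hindbrain library 1 the hindbrain difference was 2.25 (adjusted p = 1.09e-05), and dorsal midbrain (1.44, adjusted p = 3.01e-05), forebrain (-1.20, adjusted p = 0.000384) and alar plate (0.93, adjusted p = 0.00436) were called as well. None of the 4 steps between neighbours in the order hindbrain, dorsal midbrain, alar plate, forebrain and ventral midbrain was called (adjusted p 0.228 to 0.769). The libraries of alar plate and forebrain, and of forebrain and ventral midbrain, did not overlap. The share of all genes without such overlap is not given here, so this and like statements for the other genes are descriptions only. On the log2 scale dorsal midbrain lay below alar plate (-0.47), against the order of the means, and without dorsal midbrain library 3 it lay above (0.65), while hindbrain against dorsal midbrain was 0.80 with that library and -0.31 without it.

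The promoters of Meis1 and Meis2 are shown because these genes had the widest ranges of the 7 over the libraries, 17.1-fold and 51.5-fold. Part of those ranges lay within regions. None of the motifs searched lies in either window. Each runs from 250 bases before to 50 bases after the start of the gene, as given by RefSeq on GRCm38.p6, in which 5 of the 7 genes were matched (not Pknox1 and Pknox2).
Meis1 (chr11:19018920-19019219, minus strand): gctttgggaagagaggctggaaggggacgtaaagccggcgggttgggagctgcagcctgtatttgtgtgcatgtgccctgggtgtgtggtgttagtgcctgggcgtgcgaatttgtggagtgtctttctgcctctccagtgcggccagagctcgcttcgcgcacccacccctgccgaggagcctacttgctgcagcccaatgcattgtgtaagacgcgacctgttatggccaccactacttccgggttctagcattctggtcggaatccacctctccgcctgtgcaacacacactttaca
Meis2 (chr2:116064570-116064869, minus strand): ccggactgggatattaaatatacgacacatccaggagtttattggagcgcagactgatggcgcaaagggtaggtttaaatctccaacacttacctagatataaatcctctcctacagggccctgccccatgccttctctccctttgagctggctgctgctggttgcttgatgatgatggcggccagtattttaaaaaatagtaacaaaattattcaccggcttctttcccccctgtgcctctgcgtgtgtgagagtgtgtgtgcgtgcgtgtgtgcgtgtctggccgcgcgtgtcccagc

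The motifs searched on both strands were TGACAG, the core bound by MEIS and PREP proteins, TGTCA, the core bound by TGIF proteins, whose reverse complement lies inside TGACAG, and TGATTNAT, bound by PBX with HOX proteins. Of 32851 promoter windows of the same length, 19.2% held TGACAG, 45.4% held TGTCA and 3.22% held TGATTNAT. The Meis3 window held TGTCA at 2 places, the Tgif2 window held none of the 3 motifs, and Tgif1 had 5 windows. A match is a description of the letters in these windows only.

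Meis3, which acts in hindbrain patterning in frog and zebrafish embryos, was the most even of the 7 genes and the highest on average. It was at 42.6, 43.1 and 44.0 RPKM in the ventral midbrain libraries, 56.4, 57.7 and 55.5 RPKM in forebrain, 51.8, 48.2 and 46.4 RPKM in hindbrain, 40.9, 43.8 and 48.5 RPKM in dorsal midbrain, and 52.1, 54.4 and 59.1 RPKM in alar plate. Its highest library was 1.45-fold its lowest, and all forebrain libraries lay above all of ventral midbrain, hindbrain and dorsal midbrain. Ventral midbrain was lower than the other regions, at 43.2 ± 0.69 RPKM against 51.2 RPKM, a log2 difference of -0.23 ± 0.06 with an adjusted p of 0.0356. Dorsal midbrain was lower as well, at 44.4 ± 3.84 RPKM against 50.9 RPKM, a log2 difference of -0.19 ± 0.06 with an adjusted p of 0.0416. Neither call held in all alternatives. The ventral midbrain call was lost under quantile normalization (adjusted p = 0.0853) and median-ratio scaling (0.0596), and without any of the ventral midbrain libraries, dorsal midbrain library 2, forebrain library 2 or 3, or hindbrain library 1 or 2 (0.05001 to 0.162). The dorsal midbrain call was lost without any of 11 of the 15 libraries (adjusted p 0.0501 to 0.272) and held without each of dorsal midbrain library 3, alar plate libraries 1 and 3 and forebrain library 1. Leaving out the 3 libraries that stand apart, forebrain (log2 difference 0.27, adjusted p = 0.00118) and alar plate (0.16, adjusted p = 0.0416) were called higher, and both were also called without hindbrain library 1 (adjusted p = 0.000373 and 0.0139). No step between neighbours in the order forebrain, alar plate, hindbrain, dorsal midbrain and ventral midbrain was called (adjusted p 0.148 to 0.793).

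Pknox1, which encodes PREP1, a PBX partner needed throughout the early embryo, was lowest in ventral midbrain. It was at 4.13, 3.35 and 3.06 RPKM in the ventral midbrain libraries, 5.44, 5.02 and 4.91 RPKM in forebrain, 6.23, 7.17 and 6.86 RPKM in hindbrain, 7.84, 8.33 and 6.02 RPKM in dorsal midbrain, and 6.63, 7.23 and 5.64 RPKM in alar plate. The ventral midbrain libraries lay below all others, and the forebrain libraries below all of hindbrain, dorsal midbrain and alar plate. Ventral midbrain averaged 3.51 ± 0.56 RPKM, 1.83-fold below the 6.45 RPKM of the other regions, with a log2 difference of -0.72 ± 0.10 and an adjusted p of 0.000498, and the call held without any 1 library. Dorsal midbrain averaged 7.40 ± 1.22 RPKM, against 5.47 RPKM elsewhere, a log2 difference of 0.40 ± 0.10 with an adjusted p of 0.0122 that was lost without dorsal midbrain library 1 or 2 (0.0918 and 0.0994). When the 3 libraries that stand apart were left out, forebrain was called lower (log2 difference -0.25, adjusted p = 0.0423) and hindbrain higher (0.23, adjusted p = 0.0377), and without hindbrain library 1 as well both were called (0.0321 and 0.0271). No step between neighbours in the order dorsal midbrain, hindbrain, alar plate, forebrain and ventral midbrain was called, and the closest to the threshold was ventral midbrain against forebrain (log2 difference -0.45, adjusted p = 0.0539), which was called under quantile normalization (0.0138) and median-ratio scaling (0.0386) and with replicate numbers as a block (0.0331).

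Pknox2, which encodes PREP2, ran the other way. It was at 22.8, 23.2 and 21.6 RPKM in the ventral midbrain libraries, 16.0, 16.0 and 18.9 RPKM in forebrain, 10.3, 9.13 and 10.3 RPKM in hindbrain, 10.7, 11.7 and 18.5 RPKM in dorsal midbrain, and 13.1, 13.4 and 9.43 RPKM in alar plate. All ventral midbrain libraries exceeded all others, and hindbrain lay below all of ventral midbrain, forebrain and dorsal midbrain. Ventral midbrain averaged 22.6 ± 0.86 RPKM, 1.72-fold the 13.1 RPKM of the other regions, with a log2 difference of 0.78 ± 0.14 and an adjusted p of 0.00227, and the call held without any 1 library. Hindbrain averaged 9.92 ± 0.69 RPKM, 1.64-fold below the 16.3 RPKM of the other regions, a log2 difference of -0.61 ± 0.14 with an adjusted p of 0.0189. That call was lost without any of the 3 hindbrain libraries (adjusted p 0.0668 to 0.133). Dorsal midbrain was not called with all libraries (log2 difference -0.13), and was called lower without its library 3 (-0.36, adjusted p = 0.0318) and without all 3 libraries that stand apart (-0.40, adjusted p = 0.000409). Forebrain was called higher without those 3 (0.34, adjusted p = 0.0029), and both calls were also made when hindbrain library 1 was left out as well (adjusted p = 0.000505 in dorsal midbrain and 0.00259 in forebrain). No step between neighbours in the order ventral midbrain, forebrain, dorsal midbrain, alar plate and hindbrain was called (adjusted p 0.174 to 0.616).

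**Figure D3:**
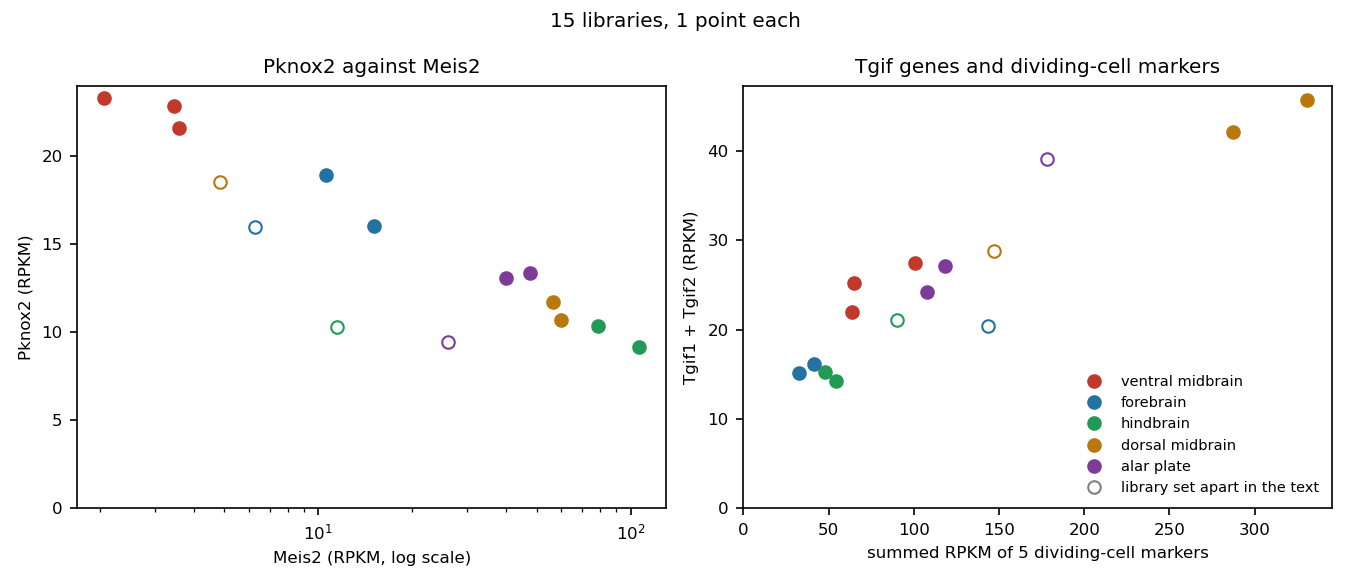
Left, Pknox2 against Meis2 in RPKM, Meis2 on a log axis; right, the sum of Tgif1 and Tgif2 against the summed RPKM of 5 markers of dividing cells, 1 point per library. Ventral midbrain lies at the upper left of the left plot (Meis2 2.07 to 3.58, Pknox2 21.6 to 23.2 RPKM), and dorsal midbrain libraries 1 and 2 at the upper right of the right plot (45.7 and 42.2 RPKM of the Tgif genes).

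The libraries with little Meis2 were those with much Pknox2, as the plot of Pknox2 against Meis2 shows. Over the 15 libraries, which share their region, their normalization and their library totals between genes, Pearson's r on log2(RPKM + 1) was -0.86 for Meis2 with Pknox2, 0.85 for Meis2 with Pknox1 and -0.81 for Pknox1 with Pknox2. Dorsal midbrain library 3, with 4.86 RPKM of Meis2, had the highest Pknox2 of its region at 18.5 RPKM and the lowest Pknox1 at 6.02 RPKM. Hindbrain library 1, with 11.5 RPKM of Meis2, had 10.3 RPKM of Pknox2, near the other hindbrain libraries. The ratio of Meis2 to Pknox2 was 0.0889 to 0.166 in ventral midbrain, 0.393 to 0.944 in forebrain, 1.12 to 11.7 in hindbrain, 0.262 to 5.62 in dorsal midbrain and 2.76 to 3.56 in alar plate.

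Tgif1, the SMAD corepressor tied to holoprosencephaly in humans, was low in forebrain and hindbrain and highest in dorsal midbrain. It was at 6.48, 4.49 and 5.53 RPKM in the ventral midbrain libraries, 2.20, 2.07 and 2.82 RPKM in forebrain, 3.70, 2.43 and 1.87 RPKM in hindbrain, 9.94, 9.47 and 6.21 RPKM in dorsal midbrain, and 6.67, 5.04 and 5.96 RPKM in alar plate. All 6 forebrain and hindbrain libraries lay below all 9 of the other regions. Dorsal midbrain averaged 8.54 ± 2.03 RPKM, 2.08-fold the 4.10 RPKM of the other regions, with a log2 difference of 0.97 ± 0.16 and an adjusted p of 0.00168 that stayed called without any 1 library. Forebrain averaged 2.36 ± 0.40 RPKM, against 5.65 RPKM elsewhere, a log2 difference of -0.89 ± 0.16 with an adjusted p of 0.0128, lost without forebrain library 2 (0.0924). Hindbrain averaged 2.67 ± 0.94 RPKM, against 5.57 RPKM elsewhere, a log2 difference of -0.77 ± 0.16 with an adjusted p of 0.0126, lost without hindbrain library 2 or 3 (0.0905 and 0.127). In the order dorsal midbrain, alar plate, ventral midbrain, hindbrain and forebrain, the step between ventral midbrain and hindbrain was called (2.06-fold in mean RPKM, adjusted p = 0.0354) and the others were not (0.215 to 0.999). It was lost without any ventral midbrain library or hindbrain library 2 or 3 (adjusted p 0.0523 to 0.194).

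Tgif2, a close relative of Tgif1 that also represses SMAD-driven transcription, was likewise highest in dorsal midbrain and lowest in forebrain and hindbrain, at a higher level. It was at 21.0, 17.5 and 19.7 RPKM in the ventral midbrain libraries, 18.3, 13.1 and 13.4 RPKM in forebrain, 17.4, 12.8 and 12.3 RPKM in hindbrain, 35.8, 32.7 and 22.7 RPKM in dorsal midbrain, and 20.5, 19.2 and 33.2 RPKM in alar plate. Dorsal midbrain lay above all ventral midbrain, forebrain and hindbrain libraries and overlapped alar plate through alar plate library 3. Dorsal midbrain averaged 30.4 ± 6.87 RPKM, 1.67-fold the 18.2 RPKM of the other regions, with a log2 difference of 0.73 ± 0.17 and an adjusted p of 0.00804. The call was lost without dorsal midbrain library 1 or 2 (adjusted p = 0.0793 and 0.0602). Forebrain and hindbrain differences of -0.48 ± 0.17 and -0.56 ± 0.17 were not called (adjusted p = 0.149 and 0.0747). Leaving out the 3 libraries that stand apart gave -0.61 and -0.52, both called (adjusted p = 0.0013 and 0.0015), and without hindbrain library 1 as well -0.57 and -0.66 (0.00011 and 4.73e-05). No step between neighbours in the order of Tgif2 levels was called (adjusted p 0.383 to 0.999).

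Pearson's r between Tgif1 and Tgif2 over the 15 libraries was 0.88, the highest among the 21 pairs of the 7 genes, and Tgif2 was 3.07 to 8.30 times Tgif1 in RPKM. The summed RPKM of 5 markers of dividing cells (Mki67, Top2a, Cdk1, Ccnb1 and Birc5) was 63.5 to 101 in ventral midbrain, 32.9 to 144 in forebrain, 47.8 to 90.3 in hindbrain, 147 to 330 in dorsal midbrain and 108 to 178 in alar plate. Dorsal midbrain libraries 1 and 2 were highest in that sum and in the sum of Tgif1 and Tgif2, as the plot of the Tgif genes against the markers shows, while forebrain library 1 had 144 RPKM of the markers and 20.5 RPKM of the Tgif genes. The summed RPKM of 6 markers of meninges and mesenchyme (Col1a1, Col1a2, Col3a1, Dcn, Lum and Foxc1) was 64.1 to 121 in dorsal midbrain and 8.61 to 160 in alar plate, against 3.65 to 15.1 in the other regions, where Lum was at most 1.08 RPKM and at 0 in all ventral midbrain libraries. The part of dividing cells and of mesenchyme in the differences of dorsal midbrain was not tested.

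The promoters of Tgif1 and Tgif2 are shown because these genes moved together over the libraries, in lower case with TGACAG in capitals, from RefSeq on GRCm38.p6. Of the 5 Tgif1 windows, 2 held TGACAG, and the one shown has it 6 bases after the start of the transcript.
Tgif1 (chr17:70851161-70851460, minus strand): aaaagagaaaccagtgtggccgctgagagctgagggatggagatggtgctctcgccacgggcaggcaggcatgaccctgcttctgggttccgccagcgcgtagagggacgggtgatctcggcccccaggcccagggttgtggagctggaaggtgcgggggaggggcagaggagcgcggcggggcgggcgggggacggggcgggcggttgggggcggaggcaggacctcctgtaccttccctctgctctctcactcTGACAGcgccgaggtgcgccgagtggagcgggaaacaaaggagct
Tgif2 (chr2:156839757-156840056, plus strand): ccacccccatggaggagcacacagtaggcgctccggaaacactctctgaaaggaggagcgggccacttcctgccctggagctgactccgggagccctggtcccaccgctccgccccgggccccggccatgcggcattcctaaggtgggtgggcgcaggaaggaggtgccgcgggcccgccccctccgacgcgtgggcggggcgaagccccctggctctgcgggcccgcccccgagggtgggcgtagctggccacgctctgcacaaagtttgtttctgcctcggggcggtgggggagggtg

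**Figure D4:**
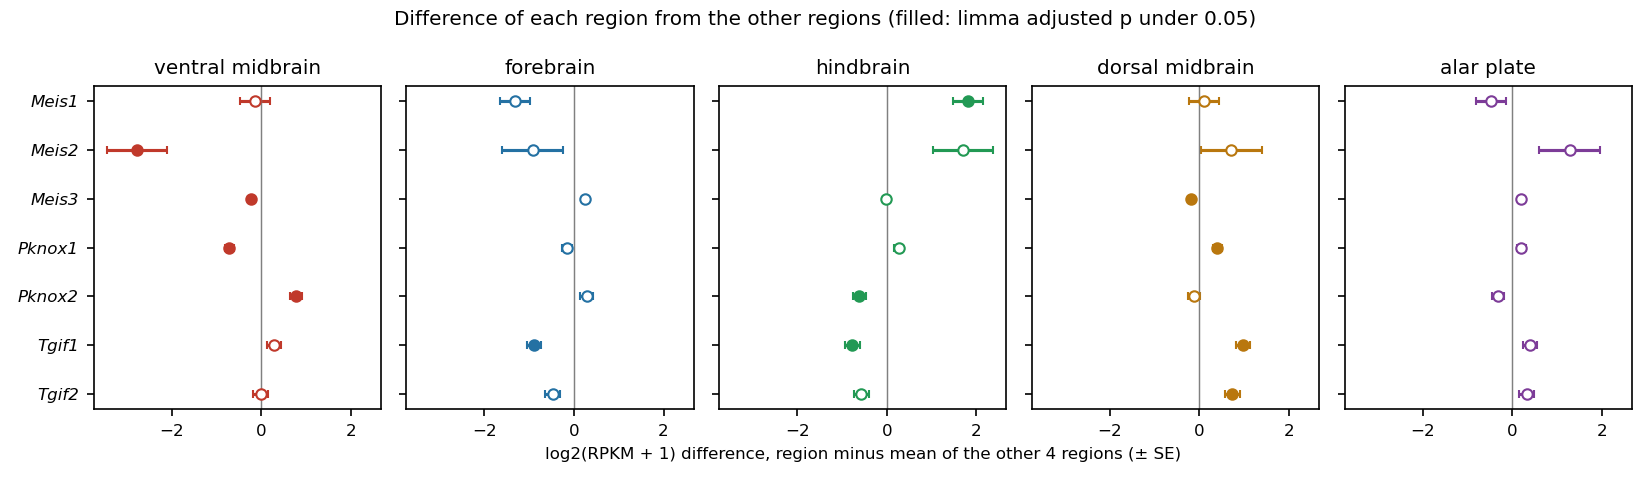
Difference of each region from the mean of the other 4 regions for each gene, on the log2(RPKM + 1) scale with its SE; filled points had an adjusted p under 0.05 in limma. Meis2 in ventral midbrain (-2.77) and Meis1 in hindbrain (1.83) were the largest called differences, and alar plate had no filled point.

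Over the 10 pairs of regions, 24 of the 70 tests of these genes were called, in comparisons that share libraries with each other. Ventral midbrain against dorsal midbrain gave 3 calls, Meis2 and Pknox1 lower and Pknox2 higher, where 23.9% of all genes were called, 11.4% higher and 12.4% lower. Ventral midbrain against alar plate gave 4, Meis2, Meis3 and Pknox1 lower and Pknox2 higher, where 14.2% of all genes were called, 9.12% higher and 5.13% lower. Ventral midbrain against hindbrain gave 4, Meis2 and Pknox1 lower and Pknox2 and Tgif1 higher, where 3.80% of all genes were called, 2.39% higher and 1.40% lower. Ventral midbrain against forebrain gave 2, Meis3 lower and Tgif1 higher, where 8.33% of all genes were called, 6.39% higher and 1.94% lower. Forebrain against dorsal midbrain gave 4, Meis3 higher and Pknox1, Tgif1 and Tgif2 lower, where 27.3% of all genes were called, 1508 of 13745 genes higher and 16.3% lower. Forebrain against hindbrain gave 2, Meis1 lower and Pknox2 higher, where 2.70% of all genes were called, 0.567% higher and 2.13% lower. Hindbrain against dorsal midbrain gave 3, Meis1 higher and Tgif1 and Tgif2 lower, where 32.1% of all genes were called, 14.7% higher and 17.4% lower. Hindbrain against alar plate gave 2, Meis1 higher and Tgif1 lower, where 9.97% of all genes were called, 6.48% higher and 3.49% lower. Limma called 0 of the 7 in dorsal midbrain against alar plate, where 1.67% of all genes were called, 1.26% higher and 0.415% lower, and 2 of the 7 had an unadjusted p under 0.05. It called 0 in forebrain against alar plate, where 0.0946% of all genes were called, 0.0437% higher and 0.0509% lower, and 4 of the 7 had an unadjusted p under 0.05. Voom on the recovered reads also called 0 in both.

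Of the 24 pair calls, 9 held without any 1 library. Meis1 was 7.28-fold lower in forebrain than in hindbrain in mean RPKM (4.67 against 34.0 RPKM, adjusted p = 0.00429). Pknox1 was 2.11-fold lower in ventral midbrain than in dorsal midbrain (adjusted p = 0.000519), 1.92-fold lower than in hindbrain (0.00365) and 1.85-fold lower than in alar plate (0.00235). Pknox2 was 2.27-fold higher in ventral midbrain than in hindbrain (adjusted p = 0.00234) and 1.89-fold higher than in alar plate (0.0048). Tgif1 was 3.61-fold lower in forebrain than in dorsal midbrain (adjusted p = 0.00139) and 3.201-fold lower in hindbrain than in dorsal midbrain (0.00065). Tgif2 was 2.14-fold lower in hindbrain than in dorsal midbrain (adjusted p = 0.00474).

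The other 15 pair calls were each lost without at least 1 library, and 5 of them under another alternative as well. Meis2 in ventral midbrain was 13.3-fold below dorsal midbrain, 12.48-fold below alar plate and 21.6-fold below hindbrain, with adjusted p of 0.0335, 0.0245 and 0.0352. The first was lost without any ventral midbrain library or dorsal midbrain library 1 or 2 (0.0688 to 0.151), the second without any ventral midbrain library or alar plate library 2 (0.0516 to 0.0877) and the third without any ventral midbrain library or hindbrain library 2 or 3 (0.104 to 0.180). With voom on the recovered reads, Meis2 was not called against dorsal midbrain (0.0515) or hindbrain (0.0689). Meis1 in hindbrain was 4.37-fold above alar plate (adjusted p = 0.0168), lost without alar plate library 3 or hindbrain library 2 or 3 (0.0535 to 0.0836). Meis3 in ventral midbrain was 1.28-fold below alar plate, lost without ventral midbrain library 1 or 2 (0.0542 to 0.0567) and under quantile normalization (0.0648), and 1.31-fold below forebrain, lost without ventral midbrain library 1 (0.0521). Meis3 in forebrain was 1.27-fold above dorsal midbrain, lost without dorsal midbrain library 1 or 2 or forebrain library 2 (0.0516 to 0.0681). Pknox1 in forebrain was 1.44-fold below dorsal midbrain, lost without dorsal midbrain library 1 or 2 or forebrain library 2 or 3 (0.0840 to 0.113) and under quantile normalization (0.0510). Pknox2 in ventral midbrain was 1.65-fold above dorsal midbrain, lost without dorsal midbrain library 1 or 2 (0.0555 to 0.0610). Pknox2 in forebrain was 1.71-fold above hindbrain (adjusted p = 0.0471), lost without any of 12 libraries (0.0510 to 0.179), with no filter (0.0570), with a filter of 5 RPKM (0.0580) and with replicate numbers as a block (0.0799). Tgif1 in ventral midbrain was 2.33-fold above forebrain, lost without ventral midbrain library 1 (0.0615), and in hindbrain it was 2.21-fold below alar plate, lost without hindbrain library 2 or 3 (0.0548 to 0.0711). Tgif2 in forebrain was 2.04-fold below dorsal midbrain, lost without dorsal midbrain library 1 (0.0571).

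**Figure D5:**
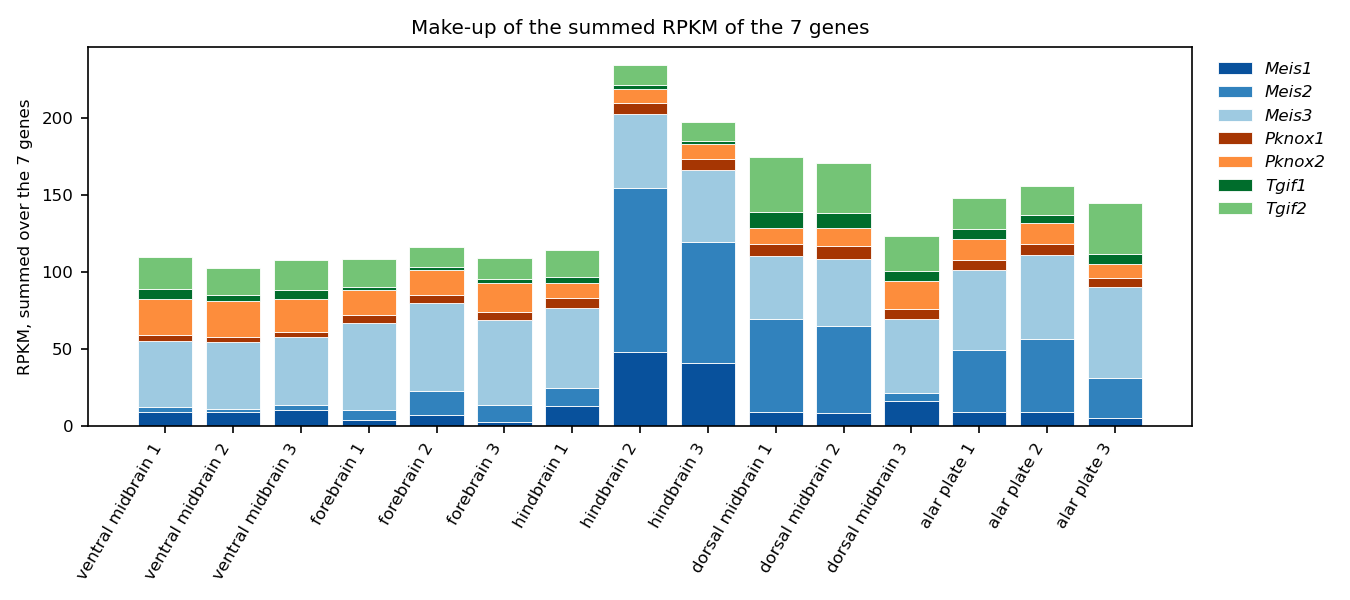
Summed RPKM of the 7 genes in each library, split by gene. Meis3 made up 38.9% to 41.9% of the sum in the ventral midbrain libraries, while Meis2 made up 2.01% to 3.33% there and 45.5% in the hindbrain library where its share was highest.

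Levels per length can be set side by side between genes, and the make-up of the family differed between regions. The summed RPKM of the 7 genes was 103 to 110 in ventral midbrain, 109 to 116 in forebrain, 114 to 234 in hindbrain, 123 to 174 in dorsal midbrain and 144 to 156 in alar plate. Meis3 had the largest mean share in ventral midbrain (40.6% ± 1.5), forebrain (50.9% ± 1.2), dorsal midbrain (29.5% ± 8.7) and alar plate (37.0% ± 3.4), and Pknox2 was the second in ventral midbrain (21.2% ± 1.3, SD, n = 3 each). In dorsal midbrain that order came from library 3, with 39.5% Meis3 and 3.95% Meis2. Dorsal midbrain libraries 1 and 2 held more Meis2 (34.4% and 33.0%) than Meis3 (23.5% and 25.7%). Meis2 made up 2.83% ± 0.72 of the sum in ventral midbrain, 9.49% ± 3.61 in forebrain, 31.8% ± 19.0 in hindbrain, 23.8% ± 17.2 in dorsal midbrain and 25.2% ± 6.4 in alar plate. The sum of Meis1 and Meis2 was 11.1 to 13.7 RPKM in ventral midbrain and 10.2 to 22.4 RPKM in forebrain, against 31.1 to 56.6 RPKM in alar plate. The ratio of Meis2 to Meis1 was below 1 in all 3 ventral midbrain libraries (0.229 to 0.383), in hindbrain library 1 (0.880) and in dorsal midbrain library 3 (0.300), and above 1 in the other 10 libraries.

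The genes most like each of the 7 were taken as the 3 with the highest Pearson's r over the 15 libraries on log2(RPKM + 1), among genes with a mean of at least 5 RPKM. They were chosen for the likeness, so r is a description, and all genes share the libraries. Meis1 was most like Bhlhe22 (r = 0.88), a transcription factor of neurons with 14.6 RPKM in hindbrain and 4.74 to 6.85 RPKM in the other regions, followed by Zdhhc24 (0.86) and BC002230 (0.83). Those of Meis2 included Ado (0.88) and Mab21l1 (0.85), a gene of eye development with 8.63 RPKM in ventral midbrain and 88.1 RPKM in alar plate. Meis3 was most like Zfp821 (0.94), Tmem198 (0.94) and Rundc3a (0.92). Pknox1 was most like Abtb2 (0.96), Crabp1 (0.93), a binding protein of retinoic acid, and Mab21l2 (0.91), with Crabp1 at 1.20 RPKM in ventral midbrain and 74.5 RPKM in dorsal midbrain. Pknox2 was most like F2r (0.87), a thrombin receptor, Sema6d (0.83), a guidance molecule, and Klhl1 (0.83), with Klhl1 at 17.8 RPKM in ventral midbrain and 2.94 to 7.65 RPKM in the other regions. Tgif1 was most like Atic (0.97), an enzyme of purine synthesis, Ephb4 (0.95) and Ptbp1 (0.95), a splicing repressor. Tgif2 was most like Hnrnpf (0.99), an RNA-binding protein, Bcl2l12 (0.99) and Ncl (0.98), the gene of nucleolin.

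Among the PBX partners of MEIS and PREP proteins, Pbxip1, a PBX-binding regulator, averaged 10.5 RPKM in ventral midbrain and 4.61 RPKM in the other regions (log2 difference 1.14 ± 0.17, adjusted p = 0.000524). It was also higher in hindbrain, at 8.14 RPKM against 5.20 RPKM (0.70 ± 0.17, adjusted p = 0.0247). Pbxip1 was lower in forebrain, at 3.14 RPKM against 6.45 RPKM (-0.74 ± 0.17, adjusted p = 0.0337), and in alar plate, at 2.83 RPKM against 6.53 RPKM (-0.87 ± 0.17, adjusted p = 0.0112). Pbx2 was lower in ventral midbrain, at 34.4 RPKM against 49.1 RPKM (-0.49 ± 0.08, adjusted p = 0.0014), and higher in dorsal midbrain, at 56.8 RPKM against 43.5 RPKM (0.40 ± 0.08, adjusted p = 0.00397). Pbx3 was higher in hindbrain, at 127 RPKM against 72.5 RPKM (0.87 ± 0.22, adjusted p = 0.0382).

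Of 10 SMAD and corepressor partners of TGIF proteins, all tested, 5 were called by the F test, where 33.7% of all genes were called, and 5 were higher in dorsal midbrain and none lower, where 18.2% of all genes were higher. The list median there was 0.25 on the log2 scale, beside 0.05 over all genes. Smad3, a TGF-beta signal carrier, averaged 17.4 RPKM in dorsal midbrain and 8.49 RPKM in the other regions (log2 difference 1.003 ± 0.18, adjusted p = 0.00221). Hdac1, a histone deacetylase, averaged 39.7 and 25.8 RPKM, Smad4 41.1 and 28.1 RPKM, and Skil, a SMAD corepressor, 22.3 and 16.2 RPKM (adjusted p = 0.0126, 0.00257 and 0.00687). In hindbrain Smad3 was lower and Ctbp2, a corepressor, higher, and limma called none in ventral midbrain, forebrain or alar plate. The dividing-cell and mesenchyme markers given for dorsal midbrain stand beside these counts, and their part was not tested. Without the 3 libraries that stand apart 4 were called in ventral midbrain, 6 in forebrain, 6 in hindbrain, 6 in dorsal midbrain and 1 in alar plate, where 33.5%, 43.7%, 37.8%, 64.5% and 12.3% of all genes were called.

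The 5 tectal partners and targets of Meis2, Otx2, Tle4, Epha8, Pax3 and Pax7, known as such largely from chick, were all called by the F test, where 33.7% of all genes were called. In dorsal midbrain 4 were higher, where 18.2% of all genes were higher, and in ventral midbrain 4 were lower, where 3.16% of all genes were lower, with list medians of 2.06 and -1.75 on the log2 scale beside 0.05 and -0.02 over all genes. This list, like the others, was chosen with earlier results of these data known, and Otx2 and Pax7 also served as markers of midbrain. These counts and medians are therefore a description only. Pax3 averaged 37.8 RPKM in dorsal midbrain against 4.52 RPKM in the other regions (3.37 ± 0.35, adjusted p = 8.38e-05), and Pax7 31.9 against 6.02 RPKM (2.85 ± 0.54, adjusted p = 0.00309). Otx2 averaged 132 RPKM in dorsal midbrain against 41.7 RPKM (2.06 ± 0.25, adjusted p = 0.000232). In dorsal midbrain library 3, where Meis2 was at 4.86 RPKM, Pax3 was at 31.0, Pax7 at 18.3 and Otx2 at 80.1 RPKM, against 42.4 and 40.1 RPKM of Pax3, 36.8 and 40.4 RPKM of Pax7 and 156 and 161 RPKM of Otx2 in dorsal midbrain libraries 1 and 2. In hindbrain 2 were lower, Otx2 and Epha8, in alar plate 1 was higher, Otx2, and none was called in forebrain. Without the 3 libraries that stand apart the counts were 4 in ventral midbrain, 4 in dorsal midbrain, 4 in hindbrain, 3 in alar plate and 1 in forebrain, where 33.5%, 64.5%, 37.8%, 12.3% and 43.7% of all genes were called.

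Among hindbrain genes with known MEIS or PREP sites, Hoxa2 and Hoxb2 were above 1 RPKM in hindbrain libraries 2 and 3 only, at 11.1 and 6.24 RPKM and at 8.99 and 3.05 RPKM, the same libraries in which Meis1 and Meis2 were highest. Among genes of the ganglionic eminences, where Meis2 is a known marker, Isl1 was higher in ventral midbrain, at 16.4 RPKM against 3.04 RPKM (2.69 ± 0.65, adjusted p = 0.0172). Outside ventral midbrain Isl1 was at 18.4 RPKM in alar plate library 3, 7.90 RPKM in forebrain library 1 and at most 2.30 RPKM elsewhere. Isl1 does not stand for its list, as Dlx1, Dlx2, Dlx5 and Dlx6 were at most 0.231 RPKM in ventral midbrain. In forebrain library 1 those Dlx genes were at 7.65 to 26.1 RPKM. Of 10 holoprosencephaly genes 7 passed the filter and 6 were called by the F test, where 33.7% of all genes were called, with 3 higher and 3 lower in dorsal midbrain, where 18.2% of all genes were higher and 13.8% lower. Shh, the ventral midline signal, averaged 50.5 RPKM in ventral midbrain against 6.88 RPKM (3.72 ± 0.37, adjusted p = 1.88e-05). Neither Tgif1 nor Tgif2 was called there against the mean of the other 4 regions. Tgif1 was called higher there than in forebrain and in hindbrain, calls each lost without at least 1 library.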

How the data were processed

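RNA-seq values came as 1 table of RPKM that the authors deposited for all 15 libraries, 3 in each of 5 regions. Reads were aligned with Bowtie to mm9, per the submitters' processing notes; the aligner version, gene annotation, strand setting and treatment of reads shared by related genes: not given in the sources used here. RPKM divides by gene model length, so levels of different genes can be set side by side, but only roughly. The length trend of alar plate library 3 and the unknown treatment of shared reads limit this. Regions were compared with limma 3.58.1 in R 4.3.3 on log2(RPKM + 1), all 15 libraries in 1 fit, after a filter of 1 RPKM in at least 3 libraries, with Benjamini-Hochberg adjustment over all genes tested; the scale understates changes of low genes. The fit was also run on simulated reads, in which libraries varied independently and none stood apart. That setting differs from these data, so it does not show how such libraries affect the calls. Reads were worked back from RPKM steps (tolerance 0.02 to 0.15 reads) for depth and for voom. The 7 genes and the gene lists were chosen with earlier results of these data known. Named besides the 7 were the 3 most similar genes each, up to 4 called genes of a list with the largest differences, and markers. Tables and figures used Python 3.11.15, pandas 2.3.3, numpy 2.4.6, scipy 1.17.1 and matplotlib 3.10.9. The labels number the libraries 1 to 3 in each region and name no shared litter or batch; same-numbered libraries deviated together in all 3 pairs between ventral midbrain and forebrain (r 0.234 to 0.382), ventral midbrain and hindbrain (0.278 to 0.300) and forebrain and hindbrain (0.244 to 0.317), and not in all pairs of any comparison with dorsal midbrain or alar plate. Alternatives were another pseudocount, filters, scalings, a replicate block, voom, and leaving out libraries. A few genes of the lists and markers are not reported here, and counts of lists that hold them are left out.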

Additional observations from a re-analysis of the deposited data

How the results depend on the processing

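Numbers of the 7 genes called depended mostly on which libraries entered. Leaving out 1 library at a time gave 6 to 7 genes for any difference, 2 to 4 in ventral midbrain, 0 to 3 in forebrain, 0 to 4 in hindbrain, 1 to 6 in dorsal midbrain, 0 in alar plate and 17 to 32 of the pair tests, while over all genes the same fits called 2352 to 7782, 690 to 2694, 71 to 1143, 318 to 2008, 1136 to 7313 and 387 to 1763 genes, against 4631, 1456, 401, 866, 4398 and 640 with all libraries. Over the pairs, the same fits called 0 (forebrain against alar plate) to 7181 genes (hindbrain against dorsal midbrain), against 13 and 4410 genes (0.0946% and 32.1%) with all libraries. Without the 3 libraries that stand apart the counts were 4 in ventral midbrain, 6 in forebrain, 5 in hindbrain, 6 in dorsal midbrain, 1 in alar plate and 46 pair tests. There 33.5%, 43.7%, 37.8%, 64.5% and 12.3% of all genes were called in the 5 regions, and 9.06% to 63.4% in the pairs. With hindbrain library 1 left out too, the counts were 4, 7, 6, 6, 2 and 54. There 37.0%, 45.4%, 40.8%, 67.0% and 16.4% of all genes were called in the 5 regions, and 7.76% to 65.3% in the pairs. These libraries were chosen for their distance, and fewer samples with a smaller spread enter. Quantile normalization gave 2 in forebrain, and the share of all genes called is not given here for it or for the block. With replicate numbers as a block the counts were 7 for any difference, 4, 1, 3, 4 and 0 in ventral midbrain, forebrain, hindbrain, dorsal midbrain and alar plate, and 25 pair tests; 42 of 43 calls were kept and Pknox2 in forebrain against hindbrain was lost (adjusted p = 0.0799), while Pknox1 in ventral midbrain against forebrain was called (0.0331). By the correlations the numbers pair ventral midbrain, forebrain and hindbrain throughout and the other regions in part: 18 of 30 same-numbered pairs of libraries correlated above 0.1 (range -0.175 to 0.405), and 10 of 15 libraries correlated best with their own number. Dorsal midbrain libraries 1 and 3 correlated with the same-numbered libraries of those 3 regions (0.274 to 0.405), and dorsal midbrain library 2 did not (-0.163 to 0.0332). Of the alar plate libraries, only library 2 did (0.133 to 0.365). The planned count tests were not run, because the deposited values are RPKM; voom on recovered reads, chosen after seeing the data, kept 41 of 43 calls.

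Differences that changed sign were not called with all libraries, and the cause was not tested. For Meis1 in dorsal midbrain against the rest (0.11) the values were -0.24 without the 3 libraries, -0.38 without the 4, and -0.16 to 0.27 leaving out 1; for ventral against dorsal midbrain (-0.19) they were 0.0783, 0.0783 and -0.36 to 0.0783. For Meis2, dorsal midbrain against alar plate (-0.47) gave 0.41, 0.41 and -1.04 to 0.65, and hindbrain against dorsal midbrain (0.80) gave -0.31 without the 3 and -0.31 to 1.76, and 0.65 without the 4, where it was called (adjusted p = 0.0224). For Meis3, hindbrain against the rest (-0.02) gave 0.0226 under quantile normalization, 0.0075 without the 3 and -0.0636 to 0.0146, ventral against dorsal midbrain (-0.04) gave 0.0325 under quantile normalization, 0.0235 under median-ratio scaling, 0.0289 without the 3 or the 4 and -0.0916 to 0.0289, and forebrain against alar plate (0.04) gave -0.0045 to 0.0847. Pknox1 in hindbrain against alar plate (0.05) gave -0.0253 under quantile normalization, -0.0327 without the 3 and -0.03 to 0.12. Pknox2 in dorsal midbrain against the rest (-0.13) gave -0.36 to 0.0153, called at -0.36 without dorsal midbrain library 3 (adjusted p = 0.0318) and at -0.40 without the 3 or the 4 (0.000409 and 0.000505), and against alar plate (0.15) -0.22 without the 3 or the 4 and -0.0748 to 0.30. Tgif1 in ventral midbrain against alar plate (-0.09) gave -0.20 to 0.0270, and in forebrain against hindbrain (-0.10) 0.0141 under quantile normalization, 0.13 without the 4 and -0.26 to 0.0937. Tgif2 in ventral midbrain against the rest (-0.02) gave 0.0175 under quantile normalization, 0.0330 without the 3, 0.0696 without the 4 and -0.0703 to 0.0530, and in forebrain against hindbrain (0.07) -0.0762 without the 3 and -0.08 to 0.22.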
